A study of Mus musculus with 6 samples.

Results

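Type I interferon response genes were examined in mouse cytotoxic T cells that carry a mutant of the histone deacetylase HDAC7. A list of 44 genes known to be induced by type I interferon was used, and the brightest probe set assigned to a gene alone, on average over the 6 arrays, stood for that gene. Of the 44, 42 have such a probe set, and all 42 lay above the level under which dim genes were left out (1.27 on the log2 scale), among 13194 genes tested of 18193 on the array. Isg15 shares its only probe set with Gm9706 and is described apart, and Ifi44 is not analysed here. The cells came from spleens of P14 mice on the C57Bl/6 strain, which carry a transgenic T cell receptor for the viral peptide gp33, and were activated for 24 h with gp33. They then received, by retrovirus, GFP-HDAC7 in a phosphorylation-deficient form, and sorting gave 3 GFP positive samples (labelled as the mutant) and 3 GFP negative samples (labelled control). The control therefore consists of cells from infected cultures that were sorted as lacking GFP, while an empty-vector control is not analysed here. The retrovirus, GFP, added HDAC7 and its mutation go together in this design, and their effects cannot be told apart. Replicates are labelled as biological, but whether each had its own animal or culture is not given, and the p-values therefore cover only the spread among these 6 samples.

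Type I interferons bind the receptor formed by IFNAR1 and IFNAR2, whose kinases JAK1 and TYK2 activate STAT proteins. STAT2 joins IRF9 in a complex that binds interferon-stimulated response elements in the promoters of target genes. The products of these genes sense viral nucleic acid, degrade or edit RNA, block translation or replication of viruses, attach the ubiquitin-like protein ISG15 to other proteins, or feed back on the pathway. In T cells, interferon acts together with antigen and costimulation during the response to virus.

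The median log2 signal of the arrays was 1.69 to 1.72 in GFP negative and 1.62 to 1.66 in GFP positive samples, so the groups did not overlap in it (exact permutation p = 0.1, the smallest that 3 samples against 3 can give). On the same scale the TrpnX controls, for a bacterial gene absent from the mouse, averaged 0.60 to 0.65 and 0.60 to 0.72. The probe set representing Hdac7 read 4.81 to 4.86 in GFP negative and 8.09 to 8.18 in GFP positive samples. Of 6 cytotoxic T cell markers tested by limma, 4 were called higher, 1 lower and 1 neither. Cd8a, a chain of the coreceptor of these cells, had a mean of 8.996 in the controls and 10.24 in GFP positive samples, and Cd3e, a chain of the T cell receptor complex, of 6.80 and 7.35. Gzmb, the granzyme B gene, fell from 12.58 to 11.58, and Cd3d did not pass, at 10.38 and 10.33. Across the array 42.1% of genes passed a limma adjusted p of 0.05 (Benjamini-Hochberg over the 13194 genes), and 58.4% of the calls were higher in GFP positive cells. That share was 49.0% when arrays were quantile normalized. It was 39.6% when each array was centred on the median of its non-control probe sets past the filter level (median centring below). This centring shifted the median change of all genes from -0.02 to -0.14. The number of arrays limits the precision.

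Interferon-response genes were higher in GFP positive cells in most roles of the pathway. Of the 42 tested, 36 rose by limma, 1 fell (Oasl1) and 5 did not pass (Oas1a, Oas2, Mx2, Samhd1 and Trim25). As background, 24.6% of all genes tested were called higher and 17.5% lower, against 85.7% and 2.38% of these genes. The same background holds for the counts by role below. The median change was 1.12 on the log2 scale, beside -0.02 for all genes tested, and the changes ran from -0.42 for Oasl1 to 2.48 for Ifitm3. Rises of at least 2-fold were found for 25 of the 42, against 3.69% of all genes. In 36 genes all GFP positive samples lay above all GFP negative samples and in 1 all lay below, beside 29.7% and 24.2% of all genes. When GFP negative 1 and GFP positive 3 were left out together, 29 rose and 0 fell by limma (1 lower at an unadjusted p of 0.05), beside 15.7% of all genes called higher. With bulk RNA of sorted cells, a change in the share of cells that express a gene cannot be told apart from a change in the RNA per cell.

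**Figure D1:**
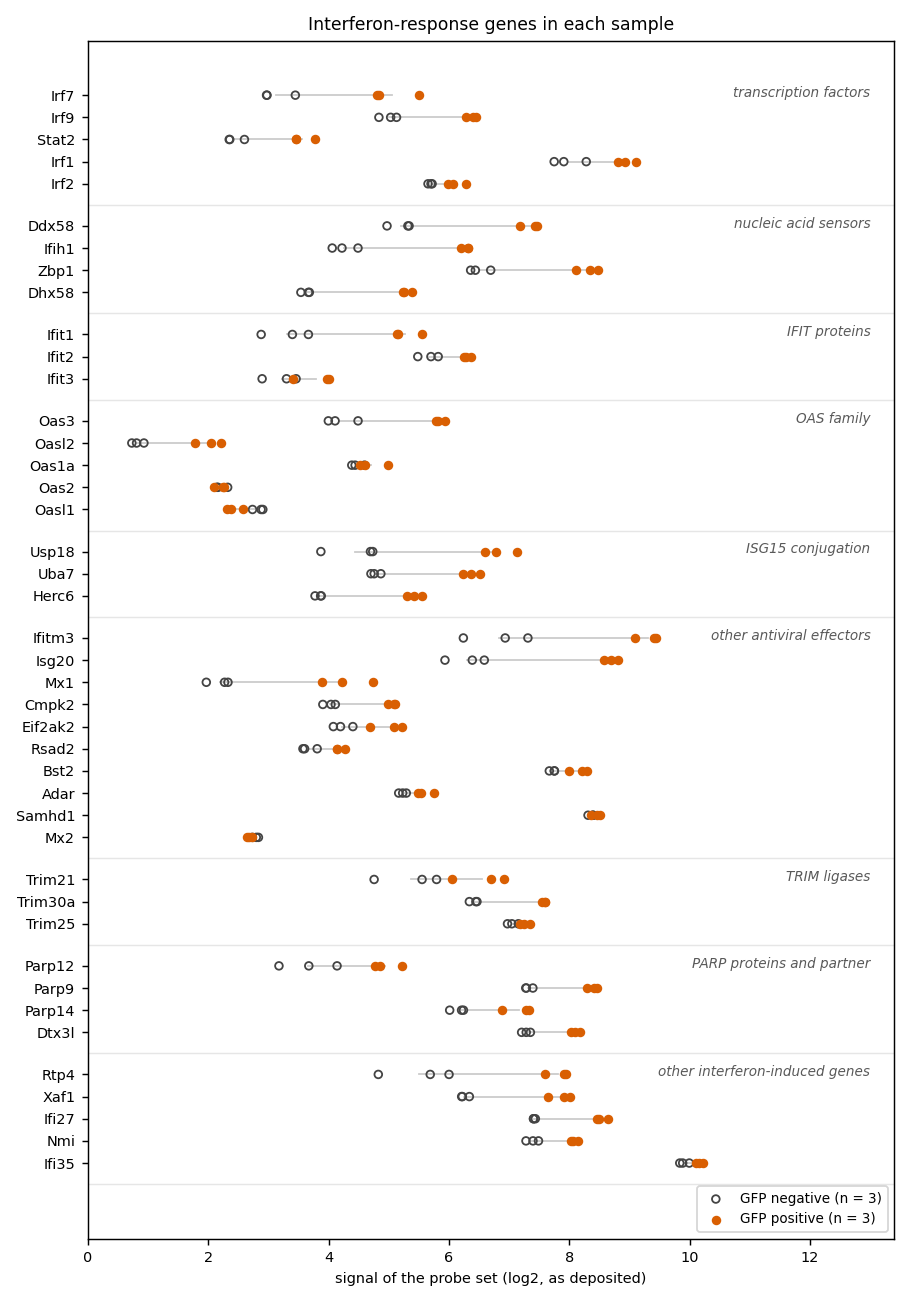
Log2 signal of the 42 interferon-response genes with a probe set of their own, grouped by role, with open circles for the 3 GFP negative and filled circles for the 3 GFP positive samples and a grey line between the group means. The filled circles lie to the right of the open ones in 36 genes, to the left in Oasl1, and overlap with them in Ifit3, Oas1a, Oas2, Mx2 and Samhd1.

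**Figure D2:**
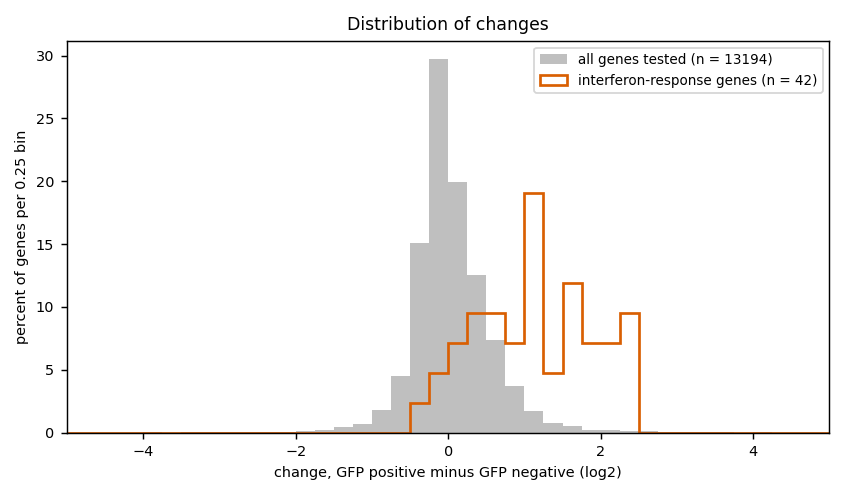
Distribution of the change between groups (GFP positive minus GFP negative, log2) for all 13194 genes tested (grey) and for the 42 interferon-response genes (line), as percent of genes in bins of equal width, with the axis drawn within 5 log2 units of 0. The interferon-response genes are shifted to the right, with a median of 1.12 against -0.02.

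Promoters of the genes were searched for the binding site of the STAT2 and IRF9 complex. The list holds genes known to be induced by type I interferon, so the share with this site does not depend on the changes measured here. The RefSeq table (GRCm38.p6) holds promoters of 34 of the 44 genes, each from 250 bases before to 50 bases after a transcript start. The core of the interferon-stimulated response element, GAAA, any 2 bases, then GAAA again (TTTC, any 2 bases, TTTC where it lies on the other strand, with overlapping matches counted separately), was found in 15 of the 34 (44.1%), against 3.99% of the 27025 genes in the table and 3.44% of its promoters. The stretches below show every match upstream of the start in 8 genes, with the core in capitals and 15 bases on each side, cut at the transcript start. They were chosen to set genes with a large change beside genes with a small one.
Ifit1: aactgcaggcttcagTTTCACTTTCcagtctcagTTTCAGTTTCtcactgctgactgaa
Ifit3: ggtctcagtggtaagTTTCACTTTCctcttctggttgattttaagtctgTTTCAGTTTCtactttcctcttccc
Oas3: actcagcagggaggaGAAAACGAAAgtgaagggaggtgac
Oas1a: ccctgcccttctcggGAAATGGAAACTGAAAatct
Isg15: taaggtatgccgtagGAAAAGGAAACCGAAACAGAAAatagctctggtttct
Bst2: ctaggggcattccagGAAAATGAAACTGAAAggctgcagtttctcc
Stat2: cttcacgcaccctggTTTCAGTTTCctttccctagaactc
Rsad2: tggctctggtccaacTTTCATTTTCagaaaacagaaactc
On GRCm38.p6 they lie at chr19:34640770-34640828 (plus strand) for Ifit1, chr19:34583358-34583431 (plus) for Ifit3, chr5:120777710-120777749 (minus) for Oas3 and chr5:120907526-120907560 (minus) for Oas1a. Those of Isg15, Bst2, Stat2 and Rsad2 lie at chr4:156200860-156200911 (minus), chr8:71537572-71537617 (minus), chr10:128270261-128270300 (plus) and chr12:26456548-26456587 (minus).

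Few of the tested genes with a promoter did not rise, so the counts below can say little on whether the core separates them from the genes that rose. Of 14 tested genes with the core in the window, 13 rose, with a median change of 1.15, and of 18 without it, 15 rose, with a median of 1.00. Ifit1 and Ifit3 each hold the same 2 core sequences, TTTCACTTTC and TTTCAGTTTC, yet differed in their change, at 1.96 and 0.58. Oas1a, with 2 overlapping matches that end just before the start, had a change of 0.23, while Oas3, with 1 match, rose by 1.64. Among the 356 tested genes outside the list that hold the core, 32.9% were called higher and 13.2% lower, against 24.8% and 17.9% of the 10221 without it. Genes of the other interferon lists described below were not taken out of these groups, nor out of those in the searches that follow. A longer form, the core followed by CT, was searched after the core had been seen and was present in 0.303% of all genes and in 7 of the 34, and of 29 other tested genes with it 58.6% were called higher, against 25.0% of those without. The gamma-activated site TTCNNNGAA, which reads the same on both strands and is bound by STAT dimers, was found in 11 of the 34, against 9.55% of all genes, and among other tested genes 25.9% with it and 25.0% without it were called higher. Of the tested interferon-response genes, 9 of 11 with the site rose, with a median change of 0.44, and 19 of 21 without it, with a median of 1.19. These are matches of letters, and binding was not measured.

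None of the ligand genes that could be tested passed. Of 15 genes for type I interferons, 8 have a probe set of their own and 5 of these lay under the filter level. Ifnb1, the interferon beta gene, read 0.99, 1.29 and 1.30 in GFP negative and 1.06, 1.36 and 0.67 in GFP positive samples, and was not tested. The other 3 genes did not pass by limma (0 also at an unadjusted p of 0.05), with Ifna1 at 2.61, 2.32 and 2.55 against 2.65, 1.78 and 1.69, a change of -0.46 (adjusted p = 0.16). Without GFP positive 1, Ifna1 was called lower (-0.76, limma adjusted p = 0.0024), and without a filter on dim genes 1 of the 8 was called lower. Ifna9 and Ifna5 changed by -0.23 and -0.08. All of these readings are low on the scale of the array, and the probe sets of interferon alpha genes can share sequence with close copies.

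Genes of the receptor and its signalling chain rose by moderate amounts. Of 11 tested genes on a list of receptor, kinase, STAT and inhibitor genes that are not among the 44, 9 rose and 2 did not pass, with a median change of 0.58, beside 24.6% of all genes called higher. The count was 7 after quantile normalization or median centring, beside 20.1% and 19.0% of all genes, and 6 without GFP negative 1 and GFP positive 3 together, beside 15.7%. Ifnar1, a receptor chain, read 5.78, 5.85 and 5.84 in GFP negative and 6.52, 6.53 and 6.70 in GFP positive samples, a rise of 0.76 ± 0.08 (SE; limma adjusted p = 3.1e-04). Ifnar2, the other chain, read 6.47, 6.52 and 6.46 against 7.34, 7.20 and 7.47 (0.85 ± 0.09). Both chains were higher in every GFP positive sample than in any GFP negative one. Tyk2 read 5.21, 5.31 and 5.40 against 5.93, 6.05 and 6.08, and Jak1 rose by 0.58. Socs3, a feedback inhibitor of cytokine receptors that bind JAK kinases, had the largest change of this list, from 6.99, 7.07 and 7.18 to 8.67, 8.58 and 9.001 (1.67 ± 0.12). Socs1, an inhibitor of interferon receptor signalling, rose by 0.44 (limma adjusted p = 0.035), and its call was lost in 4 of the 6 fits without 1 sample (GFP negative 1, GFP negative 2, GFP positive 2 or GFP positive 3, adjusted p = 0.056 to 0.11), with 32 added in linear units (0.059), after quantile normalization (0.051) and after median centring (0.063). Ptpn11, a phosphatase gene, rose by 0.27 (limma adjusted p = 0.037) and lost its call in 8 alternatives, among them both rescalings and the fits without GFP negative 1, GFP negative 3, GFP positive 2 or GFP positive 3 (adjusted p = 0.057 to 0.21). The other phosphatase genes, Ptpn2 and Ptpn6, did not pass, at -0.08 and 0.02.

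All 5 transcription factor genes rose, with changes of 0.41 to 1.92. Irf7, which amplifies interferon production and the response, read 2.98, 2.97 and 3.45 in GFP negative and 4.80, 5.50 and 4.84 in GFP positive samples. Every GFP positive value lay more than 1 log2 unit above the highest control value, a rise of 1.92 ± 0.21 or 3.77-fold (limma adjusted p = 3.1e-04). Irf9, the DNA-binding partner of STAT2, read 4.84, 5.03 and 5.13 against 6.28, 6.40 and 6.45, a rise of 1.38 ± 0.10 with little spread in either group. Stat2 itself read 2.36, 2.60 and 2.35 against 3.46, 3.46 and 3.77 (1.13 ± 0.12), and its second, dimmer probe set rose by 0.51. Irf1, an activator also induced by interferon gamma, rose by 0.97 (1.96-fold), and Irf2, which antagonises IRF1 at shared sites, by 0.41 (1.33-fold, limma adjusted p = 0.010). Irf2 lost its call without GFP negative 1 and GFP positive 3 together (limma adjusted p = 0.058).

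The 4 nucleic acid sensor genes rose together, each more than 3-fold. Ddx58, which encodes RIG-I, a sensor of viral RNA ends, read 5.32, 4.97 and 5.34 in GFP negative and 7.46, 7.18 and 7.43 in GFP positive samples, a rise of 2.15 ± 0.13 or 4.43-fold (limma adjusted p = 3.9e-05). Of its other probe sets past the filter, 1 rose by 2.25 and 1 changed by 0.12 without passing. Ifih1, encoding MDA5, a sensor of long double-stranded RNA, read 4.22, 4.06 and 4.49 against 6.19, 6.32 and 6.31 (2.02 ± 0.12). Zbp1, a sensor of left-handed nucleic acid that can trigger cell death, read 6.36, 6.44 and 6.69 against 8.11, 8.35 and 8.47 (1.81 ± 0.13), and its second probe set rose by 2.30. The groups were well apart in all of these genes. Dhx58, whose product LGP2 modulates RIG-I and MDA5, rose from 3.63 ± 0.08 to 5.29 ± 0.09 (SD, n = 3), or 3.16-fold, with the lowest adjusted p among the 42 genes (2.9e-05).

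Among genes that act upstream of interferon production the share that rose was near that of all genes. Of 12 tested genes for adaptors and other sensors, 4 rose (beside 24.6% of all genes) and 8 did not pass, with a median change of 0.25. Tbk1, a kinase that activates IRF3 and IRF7, read 7.72, 7.67 and 7.71 against 8.13, 8.18 and 8.13 (0.45 ± 0.07), and the related kinase gene Ikbke read 4.51, 4.85 and 4.84 against 5.32, 5.47 and 5.67 (0.75 ± 0.13). Irf3 rose by 0.40 and the adaptor gene Ticam1 by 0.45, while Mavs, the adaptor of RIG-I and MDA5, changed by 0.04. Sting1 and Cgas, of the DNA-sensing pathway, did not pass, at 0.20 and 0.21. Ticam1 lost its call after quantile normalization, after median centring and without GFP negative 1, GFP negative 3 or GFP positive 2 (limma adjusted p = 0.054 to 0.090). Tlr9, an endosomal DNA sensor, changed by -0.40 (limma adjusted p = 0.054) and was called lower in 6 alternatives, with -0.51 after median centring (adjusted p = 0.023). The number of the 12 that rose ranged from 3 to 7 over the alternatives, beside 15.7% to 33.1% of all genes called higher. It was 6 with the replicate number as a block (25.5% of all genes), which added Myd88 and Traf6.

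The 3 IFIT genes, which encode proteins that bind foreign RNA and block its translation, rose by unequal amounts. Ifit1 read 3.66, 2.88 and 3.40 in GFP negative and 5.15, 5.55 and 5.13 in GFP positive samples, a rise of 1.96 ± 0.20 or 3.90-fold (limma adjusted p = 2.6e-04). Ifit2 read 5.70, 5.48 and 5.82 against 6.25, 6.28 and 6.36 (0.63 ± 0.10), a smaller change with groups still apart. Ifit3 read 3.30, 2.89 and 3.46 against 4.01, 3.41 and 3.98 (0.58 ± 0.20, limma adjusted p = 0.044). In Ifit3 the groups overlapped, since GFP positive 2 lay below GFP negative 3. The Ifit3 call was lost in 4 of the 6 fits without 1 sample (those that dropped GFP positive 1, GFP positive 3, GFP negative 1 or GFP negative 2, limma adjusted p = 0.083 to 0.13). With 32 added in linear units the Ifit3 change was 0.15 and did not pass (limma adjusted p = 0.093). The genes lie close together on chromosome 19, Ifit2 next to Ifit3, with 3 coding genes between Ifit3 and Ifit1.

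The OAS family, whose members make or resemble enzymes making 2-5 oligoadenylates that activate RNase L, was divided. Of its 5 genes 2 rose, 1 fell and 2 did not pass, beside 24.6% and 17.5% of all genes called higher and lower. Oas3 read 4.11, 3.995 and 4.49 in GFP negative and 5.78, 5.81 and 5.93 in GFP positive samples, a rise of 1.64 ± 0.13 or 3.12-fold (limma adjusted p = 1.0e-04). Its neighbour Oas2 read 2.32, 2.14 and 2.16 against 2.26, 2.24 and 2.10, a change of -0.01 ± 0.09 with the groups mixed. Oas1a, in the same cluster on chromosome 5, read 4.38, 4.44 and 4.59 against 4.60, 4.98 and 4.52 (0.23 ± 0.13, limma adjusted p = 0.20), where GFP positive 2 stood above the rest and the other samples overlapped. Other genes of that cluster, which are not among the 44, were divided too. Oas1c and Oas1b rose by 1.31 and 0.65, Oas1e changed by -0.31 (called lower, limma adjusted p = 0.045) and Oas1f by -0.28 without passing. The neighbouring pair of OAS-like genes changed in opposite directions. Oasl2 read 0.93, 0.73 and 0.81 against 2.21, 2.05 and 1.78, a rise of 1.19 ± 0.12 from a control level under the filter level, so no fold is given. Oasl1, whose product restrains translation of Irf7 mRNA, read 2.91, 2.74 and 2.88 against 2.38, 2.57 and 2.32, with all GFP positive samples below the GFP negative ones (-0.42 ± 0.10, limma adjusted p = 0.0099). With 32 added in linear units the changes of Oasl2, Oasl1, Oas3 and Oas1c were 0.09, -0.07, 0.82 and 0.30. Oasl1 lost its call without GFP negative 1 and GFP positive 3 together (-0.33, limma adjusted p = 0.094).

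Genes for the conjugation of ISG15 and for its removal rose together. Uba7, the activating enzyme for ISG15, read 4.70, 4.76 and 4.87 in GFP negative and 6.23, 6.52 and 6.37 in GFP positive samples, a rise of 1.59 ± 0.10 or 3.02-fold (limma adjusted p = 4.7e-05). Of the other Uba7 probe sets, 1 rose by 1.57 and 1 changed by 0.26 without passing (limma adjusted p = 0.098 over probe sets). Herc6, the main ligase for ISG15 in the mouse, read 3.77, 3.88 and 3.87 against 5.31, 5.41 and 5.56 (1.59 ± 0.09), and its other probe sets past the filter changed by 0.25 to 1.22. Usp18, which removes ISG15 and blocks the interferon receptor, read 3.87, 4.69 and 4.73 against 6.78, 7.13 and 6.60. GFP negative 1 stood low among the Usp18 controls, and the groups were nonetheless well apart (2.40 ± 0.24, 5.28-fold). The probe set shared by Isg15 and Gm9706 read 5.17, 4.72 and 5.29 against 6.76, 7.07 and 6.88, a difference of 1.84 ± 0.16 in a limma fit over probe sets (adjusted p = 3.0e-04), and which of the pair it measures cannot be told apart.

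Among 10 other antiviral effector genes 8 rose and 2 did not pass, beside 24.6% of all genes called higher. Ifitm3, which blocks entry of viruses from endosomes, had the largest rise of the 42 genes. It read 6.93, 6.24 and 7.31 in GFP negative and 9.44, 9.09 and 9.40 in GFP positive samples, with the controls spread over about 1 log2 unit and all GFP positive samples far above them (2.48 ± 0.25, 5.59-fold, limma adjusted p = 2.2e-04). Isg20, an RNA exonuclease, read 6.59, 5.93 and 6.39 against 8.58, 8.70 and 8.80 (2.39 ± 0.16, 5.25-fold). Mx1, encoding a dynamin-like GTPase, read 1.97, 2.27 and 2.33 against 3.89, 4.74 and 4.22 (2.09 ± 0.21), whereas Mx2 read 2.80, 2.73 and 2.83 against 2.64, 2.68 and 2.73 (-0.10 ± 0.08, limma adjusted p = 0.30). Both Mx genes are annotated as transcribed pseudogenes in the C57BL/6J reference used here, and of the pair only the Mx1 transcript rose. Cmpk2 rose by 1.04, with a second, dim probe set that did not change past the threshold (-0.003), and its neighbour on chromosome 12, Rsad2 (viperin), by 0.52, with other Rsad2 probe sets at 0.62 and -0.04. Eif2ak2, the kinase PKR that halts translation on double-stranded RNA, rose by 0.77, Bst2 (tetherin) by 0.44 and Adar, an RNA editing enzyme, by 0.36. Of the other Eif2ak2 probe sets, 1 rose by 0.77 and 1 changed by 0.42 without passing. Samhd1, a hydrolase of deoxynucleotides, read 8.39, 8.39 and 8.31 against 8.36, 8.46 and 8.50 and did not pass (0.08 ± 0.08). Of its other 4 probe sets, 1 was called higher, by 0.91. Bst2, Eif2ak2 and Adar lost their calls without GFP negative 1 and GFP positive 3 together (limma adjusted p = 0.061 to 0.082), and Adar also without GFP negative 2 (0.055).

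Of the TRIM ubiquitin ligase genes, Trim30a and Trim21 rose and Trim25 did not pass. Trim30a read 6.34, 6.46 and 6.45 in GFP negative and 7.60, 7.60 and 7.54 in GFP positive samples, a tight rise of 1.17 ± 0.08 (limma adjusted p = 5.6e-05). A second Trim30a probe set, 5.22, 6.63 and 6.497 against 6.03, 7.63 and 7.71, overlapped between groups and did not pass (1.01 ± 0.52, limma adjusted p = 0.17 over probe sets). In that probe set, too, the samples with the number 1 were the lowest of each group, and GFP positive was higher for every replicate number. Trim21, an intracellular antibody receptor, read 4.76, 5.55 and 5.79 against 6.05, 6.69 and 6.92. The Trim21 samples with the number 1 were the lowest of both groups, and the rise of 1.19 ± 0.30 (limma adjusted p = 0.014) lost its call without GFP positive 2 or 3 (adjusted p = 0.0502 and 0.0533). Between samples of the same replicate number, Trim21 rose by 1.29, 1.14 and 1.13, a steadiness that the SE of the group-only fit does not reflect. A second, dimmer Trim21 probe set changed by 0.56 and did not pass (limma adjusted p = 0.16 over probe sets). Trim25, the ligase that activates RIG-I, read 7.04, 7.15 and 6.97 against 7.18, 7.24 and 7.35, where the groups did not overlap but the difference of 0.20 ± 0.09 did not pass (limma adjusted p = 0.10).

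The PARP genes and their partner Dtx3l rose by similar amounts, 0.82 to 1.28. Parp9 read 7.28, 7.29 and 7.39 in GFP negative and 8.30, 8.46 and 8.40 in GFP positive samples (1.07 ± 0.08, limma adjusted p = 9.4e-05). Dtx3l, the ligase that works in a complex with PARP9, rose by 0.82 ± 0.08, and its second probe set by 0.97. Parp14 read 6.01, 6.21 and 6.24 against 6.88, 7.32 and 7.28 (1.01 ± 0.13). Parp14, Dtx3l and Parp9 are adjacent on chromosome 16, and in each all GFP positive samples lay above the controls. Parp12, on another chromosome, read 3.67, 3.17 and 4.14 against 4.85, 4.76 and 5.22, with a wider control spread (1.28 ± 0.23).

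The 5 other interferon-induced genes rose. Rtp4, a chaperone of membrane receptors, read 5.69, 4.83 and 6.00 in GFP negative and 7.90, 7.59 and 7.95 in GFP positive samples, a rise of 2.31 ± 0.27 or 4.96-fold (limma adjusted p = 4.2e-04). Xaf1, which promotes apoptosis, read 6.22, 6.21 and 6.34 against 7.64, 7.91 and 8.01 (1.60 ± 0.11). Ifi27 read 7.41, 7.43 and 7.40 against 8.64, 8.47 and 8.50, the controls differing by only a few hundredths (1.12 ± 0.08), and its second probe set rose by 1.27. Nmi, a binding partner of IFI35, rose by 0.69. Ifi35 had the smallest called rise, 0.25 ± 0.08 (limma adjusted p = 0.037), and its call ended in the fits that left out GFP positive 2, GFP positive 3, GFP negative 1 or GFP negative 2 (adjusted p = 0.080 to 0.12).

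The low Rtp4, Ifit1, Ifitm3 and Isg20 values of GFP negative 2 belong to a pattern across the controls. Of the 3 GFP negative samples, GFP negative 2 was the lowest in 22 of the 42 genes, against 27.4% of all genes tested, and GFP negative 3 the highest in 27, against 33.9%. Among GFP positive samples, GFP positive 1 was the lowest in 25, against 38.1% of all genes. The median signal over the 42 genes was 4.80, 4.90 and 5.18 in GFP negative and 6.21, 6.36 and 6.36 in GFP positive samples, so the spread within a group was small beside the difference between groups. Of the 42, 37 were higher in GFP positive cells in all 3 pairs of the same replicate number, beside 35.7% of all genes.

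Other probe sets of the same gene mostly had the sign of the representative, but many did not pass the threshold. The 42 genes have 75 probe sets, and 20 genes have more than 1. Of 30 other probe sets past the filter, 26 had the sign of the representative, 13 were called the same way as a called representative, 0 the opposite way by limma and 16 did not pass. Adar, for which the representative rose by 0.36, had other probe sets that rose by 0.66 and 1.39. With the mean of all probe sets of a gene in place of the representative, 36 rose and 1 fell, with a median change of 0.88, beside 22.4% of all genes called higher.

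The size of the changes depends on how low signals are treated. Adding 32 to each value in linear units, which damps differences near background, left 35 rises and 1 fall by limma. Of all genes, 24.8% were then called higher and 14.6% lower. The median change of the 42 was lowered from 1.12 to 0.68 (from -0.02 to -0.00 for all genes), and 21 of the 36 rises shrank by more than 1.5 times. Ifitm3, Isg20, Zbp1, Xaf1 and Rtp4 kept rises of 2.18, 2.00, 1.51, 1.28 and 1.71. Irf7, Irf9, Stat2 and Ifit1 had rises of 0.68, 0.85, 0.23 and 0.75, Mx1 0.50, Usp18 1.44, Ifih1 1.10 and Dhx58 0.68. Uba7, Herc6, Parp12 and Cmpk2 had 0.95, 0.70, 0.48 and 0.44. Fold values given above for genes with a low control signal therefore hold only for the deposited scale.

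**Figure D3:**
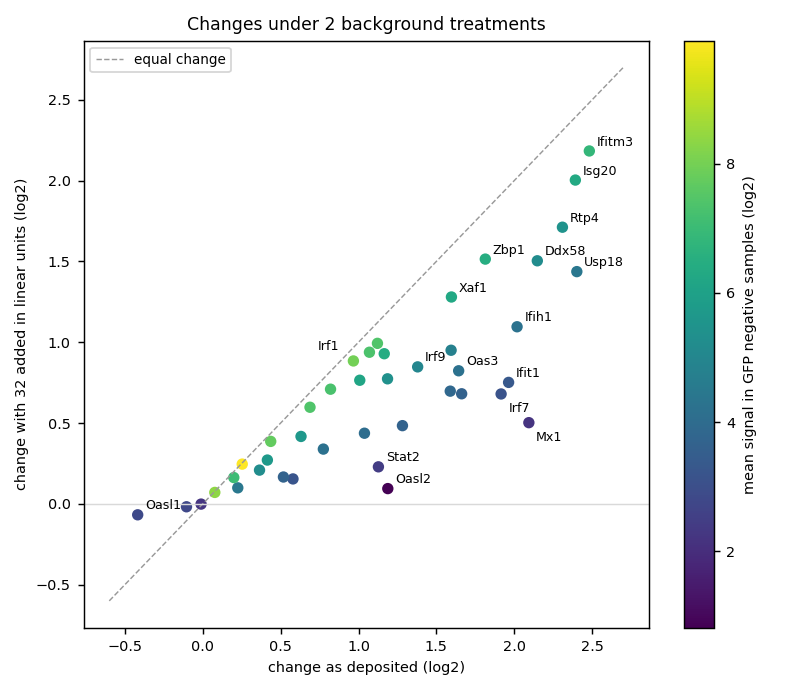
Change of each of the 42 genes as deposited (horizontal axis, log2) against the change with 32 added in linear units (vertical axis, log2), coloured by the mean signal in GFP negative samples, with a dashed line where both are equal. Genes with a low control signal such as Mx1 (2.09 against 0.50) and Oasl2 (1.19 against 0.09) lie far below the line, and genes with a higher one such as Ifitm3 (2.48 against 2.18) lie near it.

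Most of the tested interferon-induced genes from a further list of 44 rose. This list too was chosen with earlier results of these data known, so it gives no independent support. Among the 37 that were tested 23 were called higher, 1 lower and 13 neither, with a median change of 0.74, beside 24.6% and 17.5% of all genes called higher and lower. With the replicate number as a block 28 rose, beside 25.5% of all genes. Epsti1 read 9.0, 8.73 and 8.95 in GFP negative and 10.71, 10.49 and 10.65 in GFP positive samples (1.72 ± 0.10, limma adjusted p = 4.0e-05). Tmem140 read 1.39, 2.09 and 1.59 against 4.70, 4.72 and 4.91 (3.08 ± 0.17, and 0.75 with 32 added in linear units). Trafd1, a feedback regulator of innate signalling, and Lgals9 (galectin-9) rose by 1.10 and 1.29. Ms4a4c was the gene that fell, by 0.89. Trim34a read 1.85, 4.95 and 5.03 in GFP negative and 1.98, 6.51 and 6.49 in GFP positive samples. Both samples with the number 1 stood far below the others, and the change of 1.05 passed with the replicate number as a block (limma adjusted p = 0.54 without and 0.027 with it).

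Interferon gamma, the interferon that activated T cells themselves secrete, was also measured. Ifng read 2.67, 3.23 and 3.56 in GFP negative and 4.74, 4.99 and 4.70 in GFP positive samples, and all GFP positive samples lay above the controls (1.66 ± 0.21, limma adjusted p = 5.7e-04, and 0.55 with 32 added in linear units). Of 8 tested genes on a list for interferon gamma, its receptor and its typical targets, 3 rose, 1 fell and 4 did not pass, beside 24.6% and 17.5% of all genes called higher and lower. Jak2, the kinase of its receptor, read 5.87, 5.77 and 5.70 against 7.05, 6.90 and 6.94 (1.18 ± 0.08). Nlrc5, an activator of class I antigen presentation genes, rose by 0.43, and Ciita, its counterpart for class II, changed by -0.35 at a low level (-0.03 with 32 added in linear units, limma adjusted p = 0.20). Its call was also lost after quantile normalization (0.068) and without GFP negative 1, GFP negative 3 or GFP positive 2 (0.099 to 0.12). The receptor genes Ifngr1 and Ifngr2 did not pass, at -0.06 and -0.19, nor did Cxcl10, at -0.31, which was called lower without GFP negative 2 (-0.52, limma adjusted p = 0.0056). Irf1 and several of the 42 genes are also induced by interferon gamma, and which interferon they respond to was not tested.

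**Figure D4:**
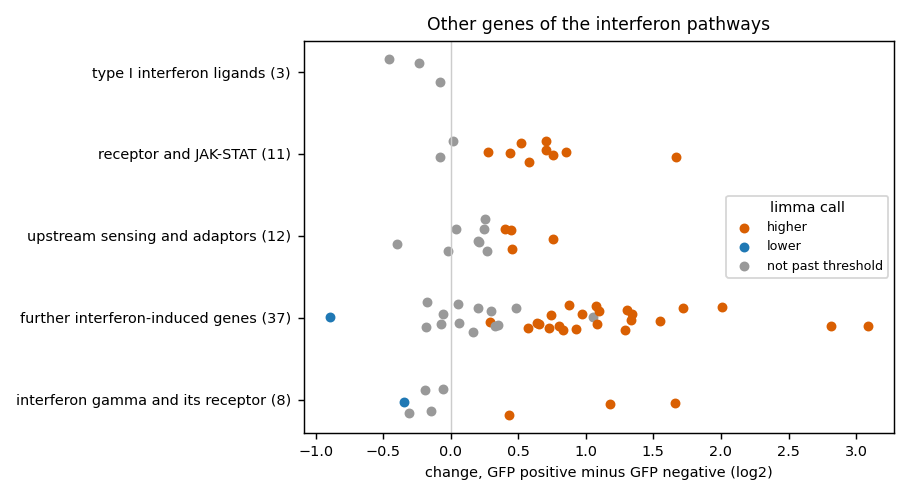
Change between groups (GFP positive minus GFP negative, log2) of tested genes of the interferon pathways that are not among the 44, 1 point per gene, by list with the number tested in brackets and coloured by the limma call. Rises are frequent among receptor and JAK-STAT genes (9 of 11) and further interferon-induced genes (23 of 37), and none of the 3 tested ligand genes passed.

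Markers of other cells that make or answer interferon mostly had low signals. Of 7 plasmacytoid dendritic cell markers, 2 lay under the filter level, and among the 5 tested Tcf4 rose by 1.14, Siglech, Pacsin1 and Klk1 fell by 0.22, 0.41 and 0.69, and Ly6d did not pass. With 32 added in linear units, Tcf4, Siglech, Pacsin1 and Klk1 changed by 0.23, -0.02, -0.14 and -0.23. Siglech then did not pass (limma adjusted p = 0.30). The summed signal of the 7 markers in linear units was 56.7 to 59.9 in GFP negative and 48.3 to 53.4 in GFP positive samples, and Siglech, the defining receptor of these cells, averaged 1.86 and 1.64 on the log2 scale. The 7 macrophage and monocyte markers with a probe set summed to 26.5 to 28.7 and 29.7 to 32.1, with 2 under the filter level and a rise of Cd68 by 1.11 (0.15 with 32 added in linear units). The 6 conventional dendritic cell markers with a probe set summed to 151 to 167 and 172 to 191, most of it from Cst3, which averaged 7.12 and 7.38 and is expressed widely, while Flt3 and Zbtb46 fell. With 32 added in linear units, Flt3 and Zbtb46 each changed by -0.06, and Zbtb46 did not pass (limma adjusted p = 0.071). B cell markers (5 with a probe set) summed to 29.8 to 36.7 and 28.2 to 34.2, neutrophil markers (5) to 15.9 to 17.2 and 13.7 to 17.4, and CD4 T cell markers (4) to 22.3 to 24.4 and 25.2 to 27.5. Both natural killer cell markers and both red cell markers with a probe set lay under the filter level. The part of these cells in the changes was not tested.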

How the data were processed

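Total RNA of 6 sorted samples was hybridised to Affymetrix mouse genome arrays, 1 per sample, per the labels. The deposited table holds log2 signal for 45101 probe sets, 64 of them controls. The log2 scale was read from the values. Per the submitters' processing notes the authors used Affymetrix Expression Console. The sources used here give neither its version nor its algorithm or normalization. Values were used as deposited.

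Of the probe sets, 34945 carry 1 gene symbol, 932 several and 9160 none in GEO's platform annotation. Entrez identifiers matched to RefSeq (GRCm38.p6) updated 0 symbols. Each gene was represented by its probe set with the highest mean, and genes under the 40th percentile of mean signal of non-control probe sets (1.27) were left out. Groups were compared with limma 3.58.1 in R 4.3.3 (lmFit, eBayes, group only, two-sided), tested first on simulated data, with Benjamini-Hochberg adjustment over all 13194 genes and a threshold of 0.05. Alternatives were other scalings, filters, background, probe set choice, moderation, a replicate block and left-out samples.

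Samples with the same replicate number deviated together from their group means (correlations across genes of 0.47, 0.35 and 0.25), so the numbers were taken to pair the samples, although the labels do not state it. The main fit used group only, so its SEs and calls do not take this pairing into account.

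All 44 genes are accounted for by role. Values of every sample are given for up to 3 of the largest rises of a role and for genes that fell or did not pass, and of each other list up to 4 genes by unadjusted p. Other genes named with a change, among them Oas1b, Oas1c, Oas1e, Oas1f, Tlr9, Ptpn11, Mavs, Sting1, Cgas, Ptpn2, Ptpn6, Ms4a4c and Trim34a, were chosen after their values were seen. The genes and lists were chosen with earlier results of these data known. Some genes of the lists are not analysed here.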

Additional observations from a re-analysis of the deposited data

How the results depend on the processing

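Of the 42 genes, no called change turned its direction under any of the 15 alternatives run. The number that rose was 29 to 36, beside 15.7% to 33.1% of all genes called higher, and the number that fell 0 to 2. Median centring called 2 lower, Mx2 being added (-0.22, limma adjusted p = 0.047). It called 5 of the 71 other pathway genes tested lower against 2 as deposited, beside 3819 and 2309 of all 13194 genes. With 32 added in linear units the median change was 0.68 and 1 pathway gene was lower, beside 14.6% of all genes. With the mean of all probe sets the median change was 0.88. Without GFP negative 1 and GFP positive 3 together, 3325 genes were called against 5557, 0 of the 42 were lower by limma (1 at an unadjusted p of 0.05) and 1 pathway gene was. Leaving out 1 sample at a time gave 33 to 36 rises, 1 fall, a median change of 1.07 to 1.14, and 1 to 3 pathway genes lower. Leaving out 1 sample called 4315 to 5604 genes, and 19.9% to 24.0% of all genes were called higher. Ifit3 and Ifi35 also lost their calls without a filter on dim genes (adjusted p = 0.051 for both by limma), Ifit3 and Adar after quantile normalization (0.10 and 0.080), Ifit3, Adar and Ifi35 after median centring (0.097, 0.053 and 0.19) and Trim21 with a robust trend (0.060). The replicate block left 36 rises and 1 fall among the 42, beside 25.5% of all genes called higher. Among the 71 other pathway genes tested it added 7 calls, for 46 rises against 39, and ended none. Causes of these differences were not tested. Without detection calls, how far a low signal lies above background is unknown.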
